A study of Mus musculus with 60 samples.

Results

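The 7 genes that code for the subunits of the NMDA receptor (Grin1, Grin2a, Grin2b, Grin2c, Grin2d, Grin3a and Grin3b) were taken by name from the 24508 gene rows of a hippocampal RNA-seq table. All 7 were found, and each was read in all 18 libraries. The libraries came from the hippocampus of mice on a mixed background, 50% CBA and 50% C57BL/6, at 30 weeks of age. There were 9 libraries from wild-type (WT) mice and 9 from R6/1 mice, a model of Huntington's disease in which a human transgene supplies exon 1 of huntingtin with its CAG repeat expanded. The RNA labels describe independent biological replicates and name no other allele, drug or treatment in either genotype. The transgene is human and has no row of its own among the mouse genes, so the genotype labels could not be checked against it.

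The NMDA receptor is a channel for sodium, potassium and calcium that opens when glutamate and a co-agonist, glycine or D-serine, are both bound and the membrane is depolarised enough to release a magnesium block. Each receptor joins obligatory GluN1 subunits, made from Grin1, with GluN2 subunits (Grin2a to Grin2d), which bind glutamate and set how fast the channel closes, or with GluN3 subunits (Grin3a and Grin3b), which bind glycine and lower the calcium flow. In the adult hippocampus GluN2A and GluN2B are the main partners of GluN1 in pyramidal and granule neurons, GluN2D is found mainly in interneurons, and calcium entry through these receptors starts long-term changes of synaptic strength.

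Because the subunits are relatives, reads of one could in principle be assigned to another. The coding sequences of all 7 genes were therefore aligned. The stretch below codes for the end of the third membrane segment, where 7 consecutive residues are identical in all 7 proteins, with 4 codons added on each side. It is printed for Grin1, Grin2c, Grin3a and Grin3b, 5' to 3' on the coding strand of build NCBIM37 (mm9), and capitals mark bases that differ from Grin1.
Grin1 (chr2:25152710-25152754, minus strand, exon 15 of 21): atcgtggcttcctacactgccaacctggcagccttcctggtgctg
Grin2c (chr11:115115054-115115098, minus strand, exon 9 of 13): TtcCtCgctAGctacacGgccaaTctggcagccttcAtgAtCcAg
Grin3a (chr4:49783333-49783377, minus strand, exon 3 of 9): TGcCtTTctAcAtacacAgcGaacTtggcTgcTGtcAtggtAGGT
Grin3b (chr10:79437372-79437416, plus strand, exon 3 of 9): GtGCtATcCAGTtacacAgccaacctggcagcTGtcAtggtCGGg
In this block of 45 bases, Grin2c differed from Grin1 at 11 bases, Grin3b at 16 and Grin3a at 18. Differences in the block were counted against Grin1 only, not between closer relatives. Over whole transcripts, the longest run of identical bases shared by any of the 21 pairs of genes was 34 bases, between Grin2b and Grin2c, and the shortest was 12 bases. The closest proteins were those of Grin2a and Grin2b, with 56.2% of aligned residues identical, whereas Grin1 and Grin2a shared 26.6%.

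Sequencing gave between 12299434 and 16457022 reads on genes in the WT libraries and between 13260311 and 16736544 in the R6/1 libraries. Levels are given in RPKM, reads per kilobase of transcript scaled for depth. Neuronal, dentate, CA1 and CA3 marker genes were read in every library, and none of the cell type markers found in the table was at 0 in any library. The choroid plexus markers, which come from tissue attached to the hippocampus, ranged from 25.2 to 1067 summed RPKM in WT and from 38.2 to 1730 in R6/1, and 0 of 5 differed between genotypes. Over the 14446 genes that averaged 0.5 RPKM or more, 6980 genes (48.3%) differed between R6/1 and WT by limma at an adjusted p under 0.05, 3394 of them (23.5%) lower and 3586 (24.8%) higher in R6/1. With every library rescaled by its own sum of reads, 66.9% of the called genes were higher, against 51.4% with the deposited scaling.

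Of the 6 subunit genes abundant enough to be tested, 3 fell in R6/1 (Grin2a, Grin2c and Grin2b), 1 rose (Grin2d) and 2 were not called (Grin1 and Grin3a). Those 3 of 6 stand beside a background of 23.5% lower and the 1 of 6 beside 24.8% higher among all tested genes. Grin2a was the only one of the 6 whose R6/1 and WT libraries did not overlap at all, a pattern seen in 11.9% of tested genes. By mean RPKM, Grin2a fell by 43.5%, Grin2c by 34.5% and Grin2b by 30.0%, and Grin2d rose by 20.6%. The seventh gene, Grin3b, lay under the abundance filter and was given no test in that fit.

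**Figure D1:**
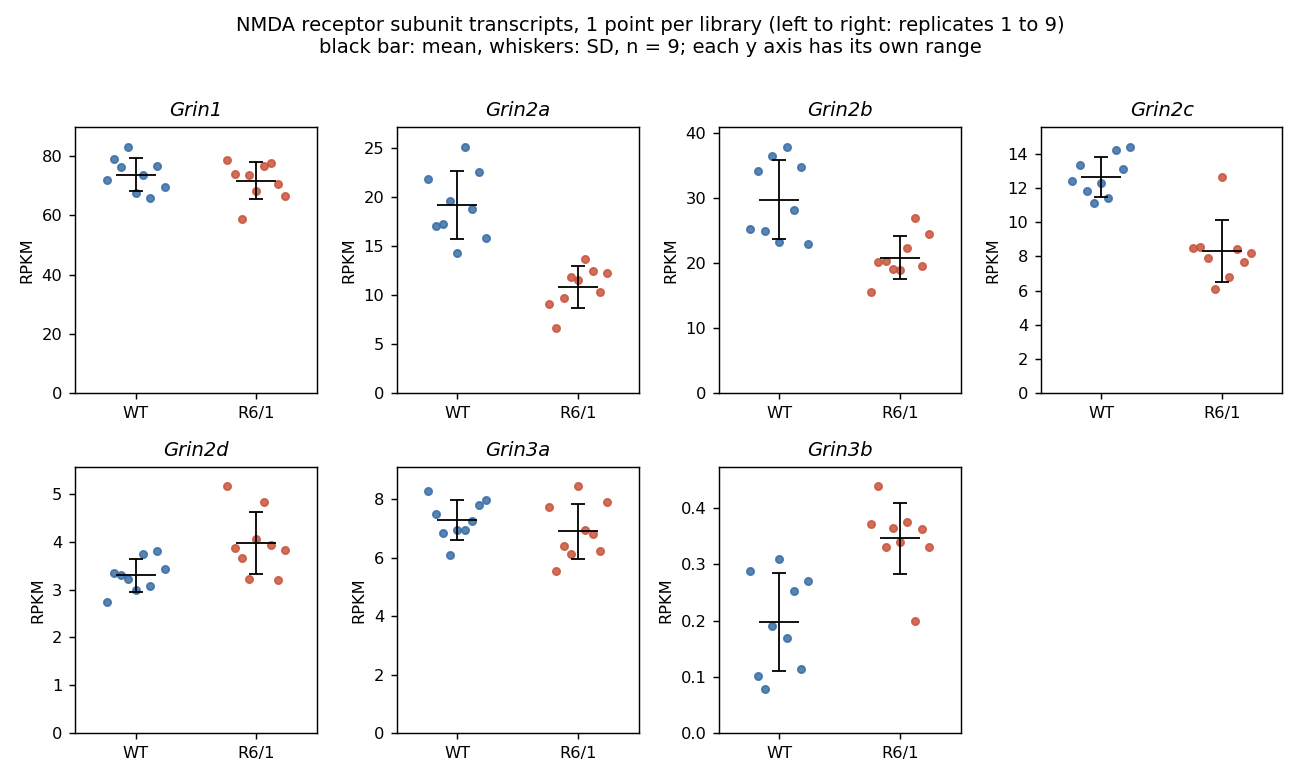
RPKM (y axis, from 0, with its own range per panel) of the 7 NMDA receptor subunit genes in 9 WT and 9 R6/1 libraries (x axis), 1 point per library with the mean and SD in black. Grin2a separates the genotypes, Grin2b and Grin2c are lower in most R6/1 libraries, Grin2d and Grin3b are higher, and Grin1 and Grin3a overlap almost fully.

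Grin1, the subunit every NMDA receptor needs, was the most abundant member by deposited RPKM and was not called different between genotypes. Its level was lowest at 66.0, 73.6 at the median and 83.2 RPKM at the highest in WT, and 58.9, 73.7 and 78.5 RPKM in R6/1. The means were 73.8 ± 5.58 RPKM (WT) and 71.7 ± 6.30 RPKM (R6/1) (SD, n = 9 each), and 8 of 9 R6/1 libraries lay above the lowest WT library. The log2 fold change was -0.04 (SE 0.054, 95% interval -0.16 to 0.07, limma adjusted p = 0.538; fold changes of single genes are on the scale of log2(RPKM + 0.5) throughout). It was 0.03 when libraries were scaled to their own totals, so no direction is given. An antisense transcript, Grin1os, lies across the end of Grin1 and shares 1307 exon bases with it. It was read at 2.19 ± 0.643 RPKM in WT and at 2.14 ± 0.243 in R6/1 (SD, n = 9 each), far below Grin1 itself.

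Grin2a codes for GluN2A, the subunit of fast-closing receptors that becomes common as the brain matures. Its level ran from 14.3 RPKM over a median of 18.8 to 25.1 in WT, and from 6.62 over 11.6 to 13.6 in R6/1. Every R6/1 library lay below every WT library. The means were 19.2 ± 3.48 and 10.8 ± 2.14 RPKM (SD, n = 9 each), a log2 fold change of -0.80 (SE 0.119, 95% interval -1.05 to -0.55, limma adjusted p = 1.49e-05). Only 1.99% of tested genes had a lower log2 fold change. The lowest value of all, 6.62 RPKM, was in R6/1 replicate 2.

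Grin2b codes for GluN2B, which gives slower-closing receptors, binds CaM kinase II tightly and is already abundant early in life. Its level ran from 22.9 RPKM over 28.2 to 37.9 in WT and from 15.6 over 20.2 to 26.9 in R6/1. The groups overlapped: 7 of 9 R6/1 libraries lay below all WT libraries, and 2 did not. The WT libraries were widely spread, with replicates 2, 4, 6 and 8 at 34.1, 36.5, 37.9 and 34.8 RPKM and the other 5 between 22.9 and 28.2. Grin2b averaged 29.8 ± 6.05 RPKM over the WT libraries and 20.8 ± 3.35 over R6/1 (SD, n = 9 each), a log2 fold change of -0.49 (SE 0.111, 95% interval -0.73 to -0.26, limma adjusted p = 0.000975).

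Grin2c codes for GluN2C, known mainly from cerebellar granule neurons and, in the forebrain, from astrocytes and some interneurons. Its level ran from 11.1 RPKM over 12.4 to 14.4 in WT and from 6.10 over 8.20 to 12.6 in R6/1. In R6/1, 8 of 9 libraries lay below all WT libraries at 8.57 RPKM or less, and replicate 5 lay inside the WT range at 12.6. Grin2c averaged 12.7 ± 1.17 RPKM in WT and 8.30 ± 1.82 over R6/1 (SD, n = 9 each); it fell by 0.60 on the log2 scale (SE 0.093, 95% interval -0.79 to -0.41, limma adjusted p = 2.32e-05).

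Grin2d, which codes for the slowest-closing subunit GluN2D, was the one tested member that rose. Its level ran from 2.75 RPKM over 3.31 to 3.80 in WT and from 3.20 over 3.88 to 5.16 in R6/1. In R6/1, 6 of 9 libraries lay above all WT libraries and the other 3 inside their range. The means were 3.30 ± 0.339 and 3.98 ± 0.659 RPKM (SD, n = 9 each), a log2 fold change of 0.23 (SE 0.080, 95% interval 0.06 to 0.40, limma adjusted p = 0.0222). Leaving out 1 library at a time moved the adjusted p to between 0.00988 and 0.0468, the nearest to the threshold of the 4 called members.

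The 2 GluN3 genes differed in abundance and in pattern. Grin3a, the better expressed one, ran from 6.09 RPKM over 7.26 to 8.27 in WT and from 5.53 over 6.83 to 8.44 in R6/1. The groups overlapped almost fully, and the log2 fold change was -0.08 (SE 0.072, 95% interval -0.23 to 0.07, limma adjusted p = 0.374). Grin3b, known mainly from motor neurons, ran from 0.0773 RPKM over 0.190 to 0.309 in WT, which is 3 to 16 reads, and from 0.200 over 0.363 to 0.438 in R6/1, 9 to 24 reads. In 8 of 9 R6/1 libraries it was above all WT libraries, and replicate 7 was the exception at 0.200 RPKM. The means were 0.197 ± 0.0868 and 0.346 ± 0.0638 RPKM (SD, n = 9 each). The authors' deposited table gives Grin3b a log2 fold change of 0.63 with an adjusted p of 0.00395, and a limma fit with no abundance filter gave 0.29 with an adjusted p of 0.00328. Grin3b shares 1059 exon bases on the opposite strand with Tmem259, which was read at 39.5 ± 2.90 RPKM in WT and at 43.0 ± 3.64 in R6/1 (SD, n = 9 each). Whether the counting used strand is not given in the sources used here, so reads of the 2 genes on opposite strands, and likewise those of Grin1 and Grin1os, cannot be told apart where they overlap.

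Levels between genes can be set side by side only per length, and the lengths are those behind the deposited RPKM. For Grin1 that length was 4764 bases, against 9700 annotated exon bases, and for Grin3a it was 8402 against 15779. For Grin2d it was 4776 against 5862, and for Grin2b 8177 against 8172. Grin1 is the denominator of every ratio below except Grin2b to Grin2a. The order of genes and the size of the ratios rest on the deposited lengths, and neither was worked out with other lengths. In both genotypes the order of mean RPKM was Grin1, Grin2b, Grin2a, Grin2c, Grin3a, Grin2d and Grin3b. In WT each gene was above the next one in 9 of 9 libraries. In R6/1 the same held for 4 of the 6 neighbouring pairs, counting Grin1 over Grin2b, Grin2b over Grin2a, Grin3a over Grin2d and Grin2d over Grin3b, whereas Grin2a was above Grin2c in 7 of 9 libraries and Grin2c above Grin3a in 7 of 9. By rank of mean RPKM among 24508 genes, Grin1 stood at 826 in WT and 839 in R6/1, while Grin2a moved from 3815 to 6071 and Grin2c from 5436 to 7204.

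A ratio of 2 subunits in 1 library is free of that library's depth scaling, and 7 ratios were tested by exact permutation of the genotype labels over libraries (all regroupings, two-sided), with p-values adjusted over the 7. Their log2 differences are differences of the mean log2 ratio, with no pseudocount. The amount of GluN2 message per GluN1 message fell. The summed RPKM of Grin2a to Grin2d was 64.9 ± 8.56 for WT and 43.9 ± 4.90 for R6/1 (SD, n = 9 each). Over Grin1, the sum was 0.864, 0.859, 0.751, 0.847, 0.780, 1.06, 0.974, 0.971 and 0.813 in WT replicates 1 to 9, and 0.488, 0.531, 0.706, 0.546, 0.690, 0.621, 0.668, 0.576 and 0.733 in R6/1 replicates 1 to 9. Every R6/1 library lay below every WT library, with means of 0.880 ± 0.102 and 0.618 ± 0.0868 (SD, n = 9 each). The log2 difference was -0.52 (SE 0.088, exact permutation p = 4.11e-05, the smallest the test can give, adjusted p = 0.000144).

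The genotypes did not overlap in the Grin2a to Grin1 ratio either. It was 0.303, 0.216, 0.226, 0.236, 0.212, 0.341, 0.285, 0.295 and 0.228 in WT replicates 1 to 9, and 0.116, 0.0894, 0.165, 0.161, 0.169, 0.178, 0.161, 0.146 and 0.185 in R6/1 replicates 1 to 9. No R6/1 value reached the lowest WT value, and the log2 difference was -0.79 (SE 0.140, exact permutation p = 4.11e-05, adjusted p = 0.000144). The Grin2b to Grin1 ratio was 0.351, 0.432, 0.327, 0.439, 0.343, 0.515, 0.427, 0.455 and 0.329 in WT and 0.198, 0.273, 0.346, 0.259, 0.277, 0.291, 0.347, 0.276 and 0.368 in R6/1, in the same order. Here 6 of 9 R6/1 libraries lay below all WT libraries, and replicates 3, 7 and 9 lay inside their range. The log2 difference was -0.46 (SE 0.121, exact permutation p = 0.00140, adjusted p = 0.00245).

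The balance of GluN2B over GluN2A message, which in development shifts towards GluN2A, was higher in R6/1. The Grin2b to Grin2a ratio was 1.16, 2.00, 1.45, 1.86, 1.62, 1.51, 1.50, 1.54 and 1.44 in WT replicates 1 to 9, and 1.71, 3.06, 2.10, 1.61, 1.63, 1.64, 2.16, 1.89 and 1.99 in R6/1 replicates 1 to 9. The groups overlapped: 3 of 9 R6/1 libraries, replicates 2, 3 and 7, lay above all WT libraries. The means were 1.56 ± 0.245 and 1.98 ± 0.455 (SD, n = 9 each), and the log2 difference was 0.33 (SE 0.124, exact permutation p = 0.0129, adjusted p = 0.0151). Without R6/1 replicate 2, the highest at 3.06, the log2 difference was 0.24 (exact permutation test, adjusted p = 0.0295).

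**Figure D2:**
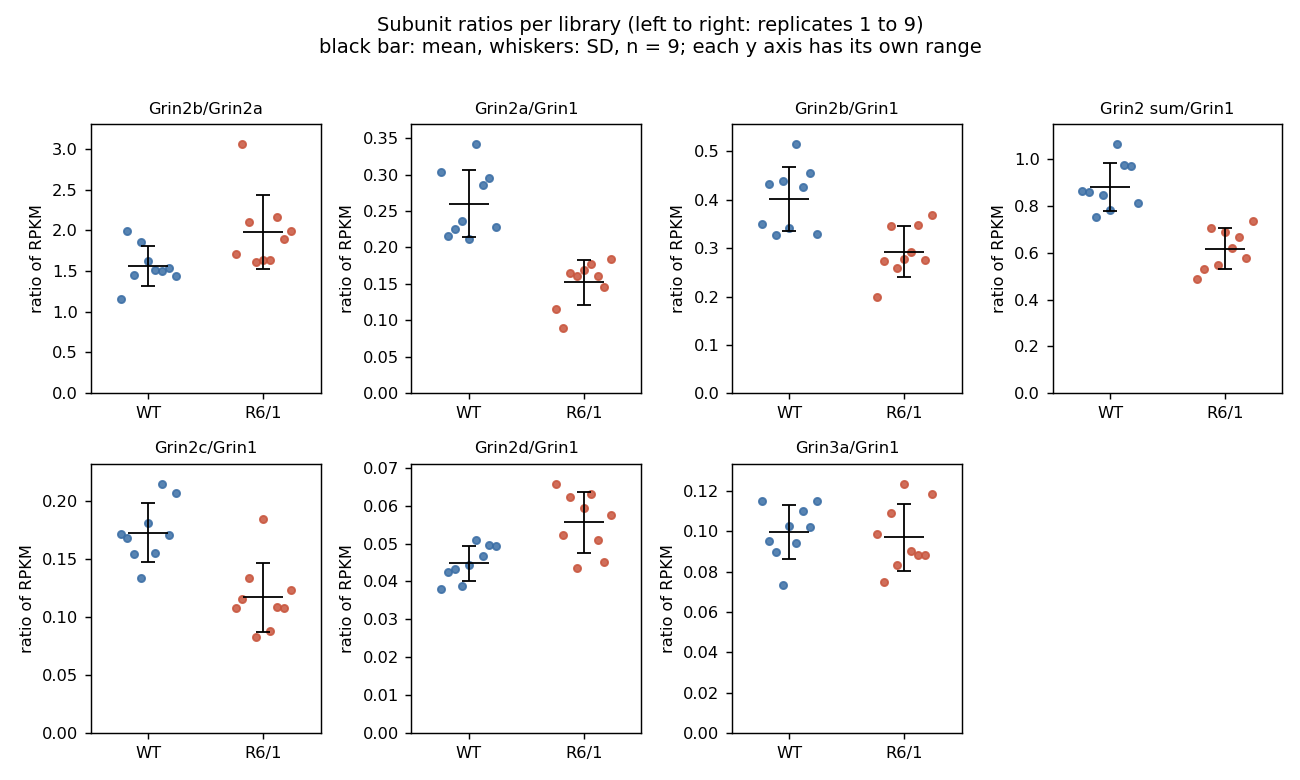
Ratio of RPKM values within a library (y axis, from 0, with its own range per panel) for 7 subunit ratios in 9 WT and 9 R6/1 libraries (x axis), 1 point per library with the mean and SD in black. The Grin2a to Grin1 and summed Grin2 to Grin1 ratios do not overlap between genotypes, and Grin3a to Grin1 does not separate them.

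The less abundant subunits moved against Grin1 in opposite directions. The Grin2c to Grin1 ratio was 0.172, 0.168, 0.154, 0.133, 0.182, 0.155, 0.215, 0.171 and 0.207 in WT replicates 1 to 9 and 0.108, 0.116, 0.134, 0.0828, 0.184, 0.0883, 0.109, 0.108 and 0.123 in R6/1. It fell by 0.59 on the log2 scale (SE 0.133, exact permutation p = 0.000864, adjusted p = 0.00202), with R6/1 replicate 5 again inside the WT range. The Grin2d to Grin1 ratio was 0.0381, 0.0425, 0.0434, 0.0387, 0.0444, 0.0509, 0.0467, 0.0497 and 0.0492 in WT and 0.0657, 0.0524, 0.0624, 0.0437, 0.0595, 0.0631, 0.0509, 0.0452 and 0.0575 in R6/1. It rose by 0.30 (SE 0.087, exact permutation p = 0.00411, adjusted p = 0.00576), and 7 of 9 R6/1 libraries lay above all WT libraries. The Grin3a to Grin1 ratio was 0.115, 0.0951, 0.0897, 0.0733, 0.103, 0.0943, 0.110, 0.102 and 0.115 in WT and 0.0984, 0.0748, 0.109, 0.0832, 0.123, 0.0904, 0.0880, 0.0881 and 0.119 in R6/1. It overlapped almost fully, with a log2 difference of -0.04 (SE 0.106, exact permutation p = 0.686, adjusted p = 0.686). Grin3b was at 2.74 ± 1.34 RPKM per 1000 RPKM of Grin1 in WT and at 4.86 ± 0.939 in R6/1 (SD, n = 9 each), without a test.

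The 4 GluN2 messages can also be given as shares of their summed RPKM. Grin2b held the largest share in both genotypes, 45.5% ± 4.06 for WT and 47.3% ± 4.29 for R6/1 (SD, n = 9 each). Grin2a went from 29.5% ± 2.92 to 24.6% ± 3.60, and Grin2c from 19.9% ± 3.50 to 19.0% ± 3.99. Grin2d had 4.41% to 6.06% of the sum in the WT libraries and 7.63% to 13.5% in the R6/1 libraries, so its ranges did not overlap. A share depends on the other genes of the sum too, and the mean sum was 64.9 RPKM in WT and 43.9 in R6/1. In RPKM the Grin2d ranges overlapped, with 6 of 9 R6/1 libraries above all WT libraries. These shares were not tested.

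**Figure D3:**
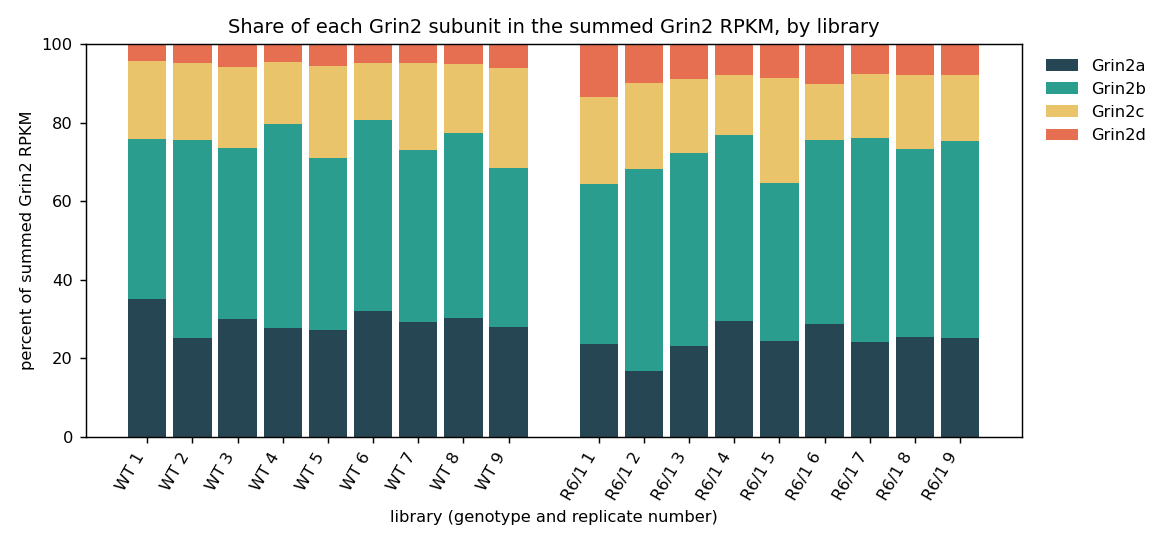
Percent of the summed Grin2a to Grin2d RPKM (y axis, 0 to 100) held by each gene in each of the 18 libraries (x axis, genotype and replicate number). The top segment, Grin2d, is larger in every R6/1 library than in any WT library, and R6/1 replicate 5 has the largest Grin2c segment of the R6/1 libraries. The sum itself had a lower mean in R6/1.

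Within a genotype, the levels of Grin1, Grin2a and Grin2b were compared over the 9 libraries on the log2(RPKM + 0.5) scale, which made 6 relations. By exact permutation 0 of 6 passed an adjusted p of 0.05; unadjusted, 0 of 6 did by Pearson's r and 1 of 6 by Spearman's rho. The closest was Grin2a with Grin2b in WT (Pearson r = 0.67, exact permutation p = 0.0520, adjusted p = 0.191; Spearman rho = 0.78, exact permutation p = 0.0172, adjusted p = 0.103), and without the 2 libraries farthest from the median of Grin2a r was 0.41. In R6/1 the same pair gave r = 0.46 (exact permutation p = 0.215, adjusted p = 0.429).

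The genes whose levels moved most like each subunit were sought among the 13105 genes that averaged 1 RPKM or more. The measure was Pearson's r of the deviations from the genotype mean over 18 libraries, which share depth and preparation. For Grin2a the nearest were Pclo (r = 0.94), Fry (0.93) and Cacna1e (0.93). Pclo codes for Piccolo, a scaffold of the presynaptic active zone, and Cacna1e for the pore of an R-type calcium channel. For Grin2b they were Mmp16 (r = 0.84), Cdh7 (0.82) and Dscam (0.82), and for Grin1 Fam134a (r = 0.84), Ap2a1 (0.83) and Pld3 (0.83). Between genotypes the neighbours of Grin2a did not all follow it. Pclo differed by -0.11 on the log2 scale (limma adjusted p = 0.214), Fry rose by 0.25 (limma adjusted p = 0.00146) and Cacna1e fell by 0.32 (limma adjusted p = 0.00199). Of the neighbours of Grin2b, Mmp16 fell by 0.29 (limma adjusted p = 0.00440) and Dscam by 0.15 (limma adjusted p = 0.0426), and Cdh7 was at 0.19 (limma adjusted p = 0.224). The neighbours of Grin1 were not called, with Fam134a at 0.08 (limma adjusted p = 0.151), Ap2a1 at 0.05 (limma adjusted p = 0.317) and Pld3 at -0.06 (limma adjusted p = 0.312).

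Around the receptor, most scaffold genes of the postsynaptic density were lower in R6/1. Of 17 scaffold genes tested, 15 fell and 1 rose, against 23.5% lower and 24.8% higher among all tested genes, and their median log2 fold change was -0.42 against 0.00 over all genes. Homer3, which links scaffolds to metabotropic glutamate receptors, fell by 0.98 on the log2 scale (SE 0.118, limma adjusted p = 1.15e-06). Shank1, a master scaffold of the postsynaptic density, went from 93.5 ± 6.17 to 56.9 ± 5.38 RPKM (SD, n = 9 each). It fell by 0.72 (SE 0.053, limma adjusted p = 1.64e-09). Dlg1, which codes for SAP97, was the 1 that rose, by 0.25 (SE 0.066, limma adjusted p = 0.00361). With libraries scaled to their own totals, 12 of the 17 were called lower. That scaling also lowered the number of genes called lower over all tested genes, from 3394 to 2526.

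Of 25 calcium sensors, kinases and phosphatases that act on or below the receptor, 16 fell and 5 rose, with a median log2 fold change of -0.24. Among all tested genes 23.5% were lower and 24.8% higher. Camk2a, the alpha subunit of CaM kinase II that binds GluN2B, went from 1057 ± 71.8 to 467 ± 32.1 RPKM (SD, n = 9 each), and the genotypes did not overlap. It fell by 1.18 on the log2 scale (SE 0.048, limma adjusted p = 2.76e-13). Ppp3ca, the catalytic A subunit of calcineurin, fell by 0.81 (SE 0.060, limma adjusted p = 1.79e-09). Camk2d, another CaM kinase II subunit, had the largest increase of the list at 0.50 (SE 0.114, limma adjusted p = 0.00106), from 8.94 ± 2.19 to 12.7 ± 1.72 RPKM (SD, n = 9 each).

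Of 14 genes for receptor transport, anchoring and membrane partners, 7 fell and 1 rose, with a median of -0.20. The shares over all tested genes were 23.5% lower and 24.8% higher. Lin7b, which anchors receptors through a complex with Cask, fell by 0.79 (SE 0.064, limma adjusted p = 5.59e-09), while Cask itself rose by 0.21 (SE 0.045, limma adjusted p = 0.000645). Neto1, a membrane partner of NMDA and kainate receptors, fell by 0.78 (SE 0.091, limma adjusted p = 8.31e-07).

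Of 14 genes that make or carry the co-agonists glycine and D-serine, 12 were tested, and Dao and Slc6a5 were under the filter. Among the 12, 5 fell and 4 rose, with a median of -0.06, beside 23.5% lower and 24.8% higher among all tested genes. Slc7a10, the transporter Asc-1 for D-serine and glycine, fell by 0.82 (SE 0.094, limma adjusted p = 6.77e-07). Gldc, which breaks down glycine, fell by 0.44 (SE 0.058, limma adjusted p = 3.38e-06), and Shmt1, which interconverts serine and glycine, rose by 0.49 (SE 0.118, limma adjusted p = 0.00196).

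Of 11 genes for glutamate supply, release and uptake, 6 fell and 1 rose, with a median of -0.27. These counts stand beside 23.5% lower and 24.8% higher among all tested genes. Slc1a2, the main astrocytic glutamate transporter GLT-1, went from 509 ± 46.8 to 307 ± 33.8 RPKM (SD, n = 9 each). It fell by 0.73 (SE 0.066, limma adjusted p = 2.63e-08). Slc17a8, the vesicular transporter VGLUT3, fell by 0.57 (SE 0.116, limma adjusted p = 0.000408), and Got1, a cytosolic aspartate aminotransferase, rose by 0.33 (SE 0.049, limma adjusted p = 1.87e-05).

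The other ionotropic glutamate receptors were lower in part as well, beside 23.5% lower and 24.8% higher among all tested genes. Of 4 AMPA receptor genes 3 fell and 0 rose, with Gria1 at -0.72 (SE 0.061, limma adjusted p = 1.11e-08) and Gria3 at -0.61 (SE 0.050, limma adjusted p = 6.97e-09). Of the 6 kainate and delta receptor genes reported here, 4 fell and 2 were not called. Grik2 fell by 0.38 (SE 0.042, limma adjusted p = 3.96e-07) and Grik4 by 0.27 (SE 0.105, limma adjusted p = 0.0372). The list medians were -0.51 for AMPA and -0.23 for kainate and delta receptors, beside -0.29 for the 6 tested NMDA receptor genes.

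**Figure D4:**
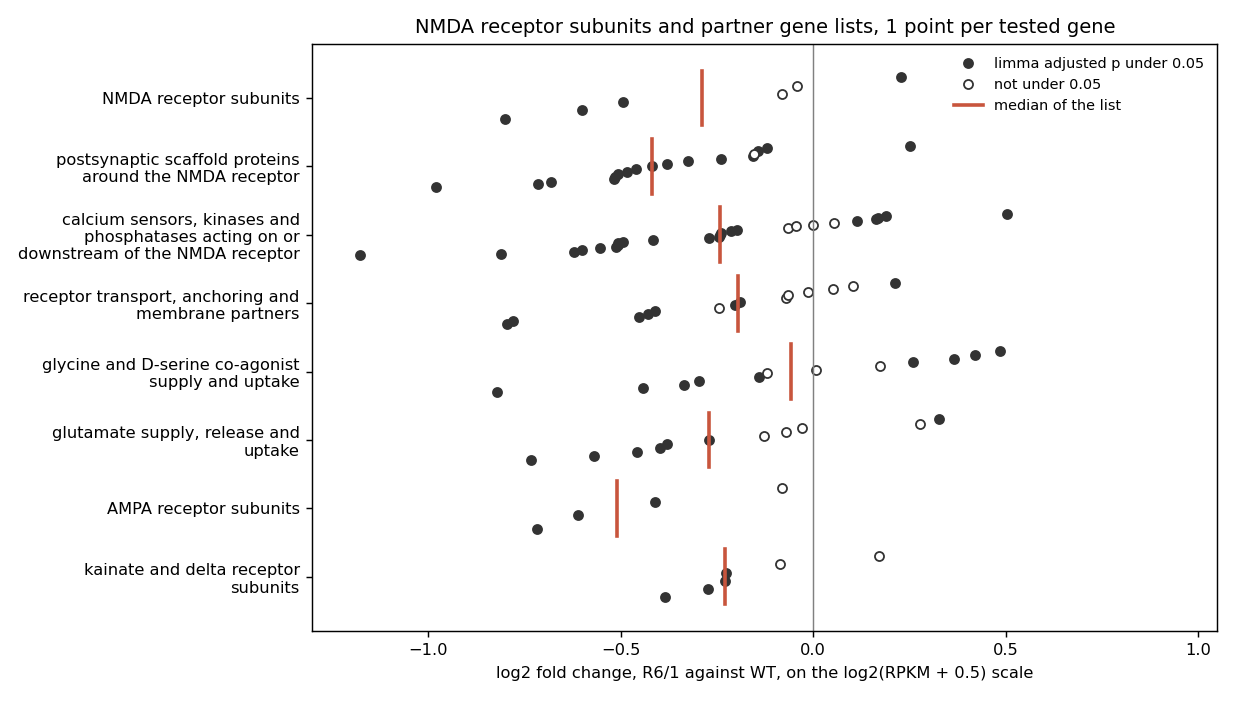
log2 fold change of R6/1 against WT (x axis, log2(RPKM + 0.5) scale) for every tested gene of the NMDA receptor subunits and 7 lists of genes around them (y axis). Filled points passed a limma adjusted p of 0.05, open points did not, and the red bar is the median of the list. The scaffold list has 15 of 17 filled points left of 0.

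Many markers of neurons and glia also differed between genotypes, beside 23.5% lower and 24.8% higher among all tested genes. Of 8 pan-neuronal markers 7 fell and 1 rose in R6/1, and their summed level was 2302 to 2746 RPKM in WT and 1907 to 2058 in R6/1, without overlap. All 6 dentate granule neuron markers fell (71.3 to 111 summed RPKM in WT, 42.3 to 53.6 in R6/1), and 5 of 7 inhibitory neuron markers fell (355 to 433 in WT, 216 to 283 in R6/1). Of 6 CA1 pyramidal neuron markers 5 fell and 1 rose (184 to 252 summed RPKM in WT, 138 to 153 in R6/1, without overlap), and 3 of 5 CA3 markers fell (59.2 to 104 in WT, 46.6 to 56.7 in R6/1). Of the 6 astrocyte markers, which bear on Grin2c and Slc1a2, 5 fell, with sums of 670 to 878 RPKM in WT and 580 to 724 in R6/1. Of 6 oligodendrocyte markers 5 fell (910 to 1180 summed RPKM in WT, 536 to 942 in R6/1). Of other types, 1 of 4 oligodendrocyte precursor, 2 of 5 microglia and 0 of 5 endothelial markers fell. Striatal projection neuron markers fell in 2 of 5 cases, with sums of 20.6 to 29.7 RPKM in WT and 14.3 to 18.2 in R6/1, without overlap. Thalamus markers fell in 2 of 4 cases, with sums of 16.1 to 65.0 RPKM in WT and 11.5 to 19.0 in R6/1. What part the markers of single cell types have in the subunit values was not tested. In bulk tissue fewer cells of a type and less RNA per cell cannot be told apart. With the mean log2 level of the pan-neuronal markers as a covariate, a fit added after seeing the data, 0 of 6 members passed the adjusted threshold by limma and 1, Grin2c, had an unadjusted p under 0.05; the log2 fold change was -0.10 for Grin2a (limma adjusted p = 0.872) and -0.71 for Grin2c (limma adjusted p = 0.0865). That fit called 1633 of the 14446 tested genes, against 6980 without the covariate. As the summed marker levels of the genotypes do not overlap, the covariate and the genotype cannot be told apart.

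All 7 genes are protein-coding, and 6 lie on the minus strand of build NCBIM37: Grin1 at chr2:25146701-25174707, Grin2a at chr16:9577803-9995014, Grin2b at chr6:135679844-136123529, Grin2c at chr11:115110483-115128557, Grin2d at chr7:53087253-53126298 and Grin3a at chr4:49674483-49858616. Grin3b lies on the plus strand at chr10:79433460-79439935. RefSeq promoter sequence (build GRCm38.p6) was matched for 4 of the 7, namely Grin1, Grin2c, Grin2d and Grin3b, and not for Grin2a, Grin2b and Grin3a. The promoters of Grin1, which was not called, and Grin2c, which fell, are printed to set a CpG-rich start beside a less CpG-rich one. Both are given 5' to 3' on the gene's strand, with their NCBIM37 position from an exact match. They run from 250 bases before the start up to the first base in an exon of any gene or inside the gene's RefSeq bounds. Capitals mark CG, a C followed by a G, which reads the same on both strands.
Grin1 (chr2:25174708-25174957, minus strand): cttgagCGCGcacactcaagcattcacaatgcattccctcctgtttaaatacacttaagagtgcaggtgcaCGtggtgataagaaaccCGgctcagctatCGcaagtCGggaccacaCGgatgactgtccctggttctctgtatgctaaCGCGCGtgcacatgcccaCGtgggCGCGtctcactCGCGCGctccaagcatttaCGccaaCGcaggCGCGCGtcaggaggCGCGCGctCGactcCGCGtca
Grin2c (chr11:115128612-115128807, minus strand): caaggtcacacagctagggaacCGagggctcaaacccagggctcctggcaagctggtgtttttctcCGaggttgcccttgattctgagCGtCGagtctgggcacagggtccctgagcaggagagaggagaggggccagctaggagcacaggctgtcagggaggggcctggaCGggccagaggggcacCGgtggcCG
In the full window of 250 bases Grin1 had 27 CG, a number that 8.56% of 32851 promoters reach, and Grin2c had 15, which 27.3% reach. Of the 15 in Grin2c, 7 lie in the 196 bases printed. Grin2d had 9 and Grin3b 2, and the median promoter had 6. In both Grin2d and Grin3b the first base of the window was already annotated, so no stretch was left to print. The Grin2d window ended at 53122301, inside the gene as placed above, so its count is not one of bases before that start. These counts are a description of the windows only.

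The lamin B1 ChIP-seq of the same study maps domains of the genome that touch the nuclear lamina, a compartment in which genes are mostly silent. The labels give 3 ChIP replicates per genotype, and the tissue of 5 mice was pooled for the ChIP. The deposited domains come as 1 list per genotype, 145 domains in WT and 166 in R6/1, so the domains have no replicate check here, and the ChIP reads of the replicates were not analysed here. Grin3a was the one subunit gene whose start lay in a WT domain, chr4:49728001-53021000, which covered 70.9% of its body. In R6/1 the matching domain began at 49876001, which left the start of Grin3a 0.017 Mb outside it and 0% of its body covered. The level of Grin3a did not separate the genotypes, as given above. The other 6 starts lay between 1.26 and 36.7 Mb from the nearest domain of either list.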

How the data were processed

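The 9 WT and 9 R6/1 RNA libraries follow a stranded messenger RNA protocol, per the labels' protocols. The submitters' processing notes name TopHat, DESeq2 and mm9 for RNA and Bowtie and mm9 for ChIP; versions, annotation and counting settings are not given in the sources used here. The authors deposited RPKM for 24508 gene symbols. The authors' deposited table of the comparison lists for each gene its mean signal as normalized counts, its log2 fold change and standard error, and the test's score and p-value, raw and adjusted. The authors' deposited domain lists give 1 score per EDD domain; how replicates were combined is not given in the sources used here.

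Reads per library were recovered from the RPKM and the mean normalized count: between 99.87% and 99.91% of values were whole within 0.05 of a read, so the deposited depth scaling is one by size factors. Values were tested as log2(RPKM + 0.5) with limma 3.58.1 (trend, R 4.3.3) over genes averaging 0.5 RPKM or more, with Benjamini-Hochberg adjustment over all tested genes and a threshold of 0.05; the pseudocount understates changes of low genes. The pipeline was tested on simulated data. Ratios used exact permutation in Python 3.11.15 and alignments MAFFT 7.526. The exon union of GENCODE M1 was within 10% of the length behind RPKM for 49.9% of 12827 genes, so ratios between genes rest on the authors' lengths. Among the subunits, Grin1, Grin3a and Grin2d were outside that margin, with lengths of 0.49, 0.53 and 0.81 times the exon union. Bounds of 3 WT and 4 R6/1 domains at NCBIM37 chromosome ends, and 0 beyond, gave the build of the lists.

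The subunits and lists were chosen with earlier results of these data known. All 7 members were named; in each list, the called gene with the largest increase and the 2 with the largest decrease; and for Grin1, Grin2a and Grin2b the 3 genes most alike. Other scalings, filters, pseudocounts, tests, covariates and the leaving out of each library were tried. The number of unused per-sample columns was 0. ChIP reads and ATAC-seq were not analysed here. Of the partner lists, 1 gene is not reported here, and the conserved coding block is not reported here for every subunit.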

Additional observations from a re-analysis of the deposited data

Results flagged for a closer look

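Libraries that stood apart from the other 8 of their group by Dixon's test were sought in 28 groups (7 subunit levels and 7 ratios in 2 genotypes), of which chance alone would flag about 1.4. There were 4. Grin2c in R6/1 replicate 5 was the highest of its group at 12.6 RPKM, with the next at 8.57, and the Grin2c to Grin1 ratio of that library was 0.184, with the next at 0.134. Grin3b in R6/1 replicate 7 was the lowest of its group at 0.200 RPKM, with the next at 0.331, a difference of few reads. The Grin2b to Grin2a ratio of R6/1 replicate 2 was the highest of its group at 3.06, with the next at 2.16; that library also had the lowest Grin2a of all, 6.62 RPKM.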

How the results depend on the processing

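In every scaling, filter, pseudocount and test tried, and without any 1 of the 18 libraries, Grin2a, Grin2b and Grin2c stayed lower and Grin2d higher at an adjusted p under 0.05; the fit with the pan-neuronal markers as a covariate was the exception. There the log2 fold changes were -0.10 for Grin2a, -0.29 for Grin2b (adjusted p = 0.589), -0.71 for Grin2c and 0.32 for Grin2d (adjusted p = 0.391), the counts of subunits lower and higher were 0 and 0, and Grin1 and Grin3a, not called in any fit, were at 0.21 and 0.15. The covariate fit called 734 genes lower and 899 higher over all tested genes, against 3394 and 3586 without the covariate. Grin1 was also above 0 with libraries scaled to their own totals (0.030), with voom on recovered reads (0.029) and with quantile normalization (0.0012). The Grin3b value of the authors' deposited table, 0.63, stands beside 0.29 without a filter. Without 1 library in turn, the Grin3a to Grin1 log2 difference ranged from -0.10 to 0.0017. With libraries scaled to their own totals, 3 transport genes were higher, not 1, and 2 kainate and delta receptor genes lower, not 4. Over all tested genes the same scaling gave 5110 higher, not 3586, and 2526 lower, not 3394.

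Whether the replicate numbers pair the libraries is not settled by the values. In deviations from the genotype mean, same-numbered libraries correlated at -0.05 to 0.24, 3 of 9 over 0.1. Of the 9, 2 correlated best with their own number. Weak correlations cannot exclude a pairing. With the replicate block 7133 genes were called against 6980, and the adjusted p of Grin2d was 0.0445. Depth limits Grin3b, at 3 to 24 reads per library; 0 reads would allow up to 3, for counting error only.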

Other observations

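The R6/1 library with the WT-like level of Grin2c was also high for other genes of astrocytes, which were looked at after its Grin2c value was seen. In R6/1 replicate 5, Slc7a10 was at 12.6 RPKM, against at most 8.64 in the other R6/1 libraries and 12.5 to 15.8 in WT. Aqp4, the water channel of astrocyte endfeet, was at 47.7 RPKM, against at most 33.0 in the other R6/1 libraries and 35.1 to 52.9 in WT. Of the 6 astrocyte markers, 4 were highest among the R6/1 libraries in replicate 5, and 4 reached the lowest WT value. For Gfap and Aldoc another R6/1 library reached it too. Aldoc was at 262 RPKM in replicate 5, against 307 in the highest other R6/1 library. Gja1 was highest among R6/1 at 92.2 RPKM but below all WT libraries. Aldh1l1, at 15.0 RPKM, was not the highest among R6/1 and also lay below all WT libraries. The Grin2a level of the same library, 11.6 RPKM, was the median of the R6/1 group. What sets this library apart was not tested.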
